A study of Homo sapiens with 24 samples.

Results

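Transcripts of 10 enzymes that make serine and carry its one-carbon units on folate were measured in A549, a long-established cell line from a human lung cancer. The 10 were taken by gene symbol (PHGDH, PSAT1, PSPH, SHMT1, SHMT2, MTHFD1, MTHFD1L, MTHFD2, MTHFD2L and ALDH1L2) from a table of 58302 genes, and each symbol was found. Of these, 8 had a mean of at least 1 FPKM (fragments per kilobase of transcript, scaled to the mapped total of the library) over the 12 libraries and were tested among 12607 such genes. MTHFD2L and ALDH1L2 were below that level and are described by their values. The choice of genes used no measured value, but it was made with earlier results of these data known.

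Polyadenylated RNA was sequenced from 4 groups of 3 libraries. They were A549 cells given a GPD1 lentivirus and 10 mM metformin, cells given a blank vector lentivirus and 10 mM metformin, cells given the GPD1 lentivirus without metformin, and cells given the blank vector lentivirus without metformin. GPD1 encodes the glycerol-3-phosphate dehydrogenase of the cytosol, and metformin, a biguanide used against diabetes, blocks respiratory complex I. The question of the study was the effect of GPD1 on cancer cell growth in the presence and absence of the drug. All 12 libraries come from cells that carry a lentivirus. The labels do not state which promoter drives GPD1, whether the cells are a clone or how long metformin was present. The labels do not tie the 3 libraries of a group to separate transductions or cultures, so each p-value rests on a spread between libraries that could be technical.

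Serine is made from the glycolytic intermediate 3-phosphoglycerate in 3 steps, by PHGDH (an NAD-dependent dehydrogenase), PSAT1 (the aminotransferase that takes its nitrogen from glutamate) and PSPH (the phosphatase). Serine hydroxymethyltransferase, SHMT1 in the cytosol and SHMT2 in mitochondria, then moves a carbon from serine to tetrahydrofolate and leaves glycine. In mitochondria MTHFD2 or its isozyme MTHFD2L oxidises the folate-bound unit, MTHFD1L releases it as formate, and ALDH1L2 can oxidise it further to carbon dioxide. Formate leaves for the cytosol, where the single trifunctional protein MTHFD1 puts it back on folate for purine, thymidylate and methionine synthesis. Several of these genes, MTHFD2 and PSAT1 among them, are known targets of the stress-responsive transcription factor ATF4, and MTHFD2 is highly expressed in many tumours and low in most adult tissues.

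Of the 7 enzymes with a RefSeq promoter in the table used, the 4 whose group means spanned the widest range on log2(FPKM + 1) are shown, since the letters that ATF4 is known to bind were searched in them. PSPH, with a wider span than MTHFD1L, was not among the 7. They are RefSeq sequences on GRCh38.p14, from 250 bases before to 50 bases after a transcript start, 5′ to 3′ on the strand of the gene. Capitals mark matches to the C/EBP-ATF response letters TGATGNAA or the E-box letters CACGTG, which MYC and other factors can bind.
PSAT1, chr9:78296875-78297174, plus strand: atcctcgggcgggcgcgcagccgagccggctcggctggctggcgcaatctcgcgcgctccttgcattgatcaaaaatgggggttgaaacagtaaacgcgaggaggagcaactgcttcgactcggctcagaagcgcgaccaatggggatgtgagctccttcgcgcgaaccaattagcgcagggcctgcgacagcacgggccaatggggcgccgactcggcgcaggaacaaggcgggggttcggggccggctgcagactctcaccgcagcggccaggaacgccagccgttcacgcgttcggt
MTHFD2, chr2:74198365-74198664, plus strand: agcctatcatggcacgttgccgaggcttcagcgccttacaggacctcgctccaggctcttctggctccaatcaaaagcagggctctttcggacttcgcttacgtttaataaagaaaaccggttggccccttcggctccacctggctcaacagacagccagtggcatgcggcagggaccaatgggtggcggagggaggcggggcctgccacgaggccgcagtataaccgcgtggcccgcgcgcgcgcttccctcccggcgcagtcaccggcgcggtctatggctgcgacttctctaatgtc
MTHFD1L, chr6:150866236-150866535, plus strand: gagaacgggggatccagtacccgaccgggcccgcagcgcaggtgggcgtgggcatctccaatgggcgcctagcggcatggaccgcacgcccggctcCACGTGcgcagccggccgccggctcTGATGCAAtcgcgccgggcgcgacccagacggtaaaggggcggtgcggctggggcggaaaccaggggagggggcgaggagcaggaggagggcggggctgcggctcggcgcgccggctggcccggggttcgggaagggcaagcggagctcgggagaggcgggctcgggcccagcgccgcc
SHMT1, chr17:18363501-18363800, minus strand: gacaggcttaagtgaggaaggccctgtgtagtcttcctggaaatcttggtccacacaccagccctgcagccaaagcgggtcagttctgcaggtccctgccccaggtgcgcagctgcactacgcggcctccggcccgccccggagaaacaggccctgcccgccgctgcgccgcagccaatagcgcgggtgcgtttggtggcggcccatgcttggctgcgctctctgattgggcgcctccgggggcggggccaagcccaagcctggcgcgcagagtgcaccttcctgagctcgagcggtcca
TGATGNAA, searched on both strands, was found in 1 of the 7 (MTHFD1L, TGATGCAA at −129 from the start shown), against 3.62% of 35116 promoters of the same length. CACGTG was found in 2 of the 7 (MTHFD1L at −154 and MTHFD1 at −15), against 7.26% of all promoters. The 7 were counted as genes with a match in any of their promoters, and the 35116 were counted as promoters, so the shares are in unlike units. MTHFD1L had more than 1 promoter, and overlapping ones hold the same matches. The MTHFD1L matches of the 2 motifs do not overlap. A match is a run of letters and not a measured site.

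The depth of the libraries was 13.3 to 18.0 M reads as read from the steps between low values, so 1 read on 1 kb of transcript was worth 0.0556 to 0.0753 FPKM. GPD1 itself averaged 13.5 ± 0.270 FPKM in GPD1 cells with metformin, 0.0538 ± 0.0251 in vector cells with metformin, 15.8 ± 0.855 in untreated GPD1 cells and 0.0770 ± 0.0323 in untreated vector cells (SD, n = 3 each), as labelled. The keratins and other epithelial markers summed to 406 to 572 FPKM per library, mostly KRT7, KRT8 and KRT18. EPCAM was 0.240 to 1.57 FPKM over the 12. CDH1 was 2.90 to 3.62 FPKM in GPD1 cells with metformin and 2.26 to 2.94 in vector cells with metformin. Without metformin CDH1 was 3.39 to 4.81 in GPD1 cells and 9.24 to 9.29 in vector cells. KRT19 and the lung lineage genes NKX2-1, SFTPA1, SFTPB and SFTPC were under 0.1 FPKM in all 12. NAPSA, the other lung gene, did not exceed 0.344. PTPRC, CD3E, PECAM1, VWF, CDH5, COL3A1 and PDGFRB, and the kidney genes LRP2 and CUBN, were also under 0.1 FPKM in all 12. The 5 kidney genes, mostly PAX2 and CDH16, summed to 2.37 to 2.78 FPKM in GPD1 cells with metformin and 2.99 to 3.66 in vector cells with metformin, against 2.34 to 2.68 in untreated GPD1 cells and 4.23 to 4.50 in untreated vector cells. The fibroblast gene COL1A1 was 3.14 to 3.29 FPKM in GPD1 cells with metformin and 2.24 to 2.72 in vector cells with metformin, against 2.95 to 3.73 in untreated GPD1 cells and 5.01 to 5.41 in untreated vector cells. CD68, the third leukocyte marker, was 4.88 to 7.003 FPKM in GPD1 cells with metformin and 7.34 to 9.11 in vector cells with metformin, against 2.59 to 3.09 in untreated GPD1 cells and 1.97 to 2.69 in untreated vector cells. The part of these markers in the results was not tested. Transcripts of the mitochondrial genome took 10.3% to 11.4% of all FPKM in GPD1 cells with metformin and 13.7% to 14.9% in vector cells with metformin, against 30.2% to 32.3% in untreated GPD1 cells and 32.9% to 33.2% in untreated vector cells. That share enters the scale of every other gene, and its part in the results was not tested beyond the alternative scalings given with them. In bulk RNA, fewer cells of a kind and less RNA per cell cannot be told apart.

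With metformin the enzymes changed in both directions. The 3 tested mitochondrial folate enzymes rose and both cytosolic ones fell in GPD1 cells as in vector cells, though SHMT2 and MTHFD1 depended on the scaling, whereas PSAT1 rose in GPD1 cells and fell in vector cells. PHGDH rose and PSPH fell in both, though the PHGDH rise in vector cells was lost with totals taken without mitochondrial genes. The scarce mitochondrial ALDH1L2, tested only with no filter on low values, was called lower with metformin in both. In GPD1 cells, 5 of the 8 tested enzymes rose and 3 fell in limma's test (adjusted p under 0.05), where 74.2% of all tested genes were called, 26.1% higher and 48.0% lower. In vector cells 4 rose and 4 fell, where 74.6% of all tested genes were called, 31.3% higher and 43.3% lower. Being called with metformin is therefore common, and the sizes and directions say more than the counts. The median log2 fold change of the 8 was 0.38 in GPD1 cells and −0.32 in vector cells, against −0.20 and −0.10 over all tested genes. The metformin and untreated libraries did not overlap for 8 of the 8 in GPD1 cells, where that held for 77.1% of all tested genes, and for 7 of the 8 in vector cells, where it held for 76.6%. Relative to those medians the enzymes stood at 0.58 and −0.22. The scale itself matters, since other scalings put the median of all genes between −0.49 and 0.17 in GPD1 cells (−0.20 as reported) and between −0.35 and 0.11 in vector cells (−0.10 as reported). The share of called genes that were higher then ran from 16.9% to 62.4% in GPD1 cells (35.2% as reported) and from 27.3% to 56.8% in vector cells (42.0% as reported). In both comparisons the low end came from totals taken without mitochondrial genes and the high end from upper-quartile scaling.

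**Figure D1:**
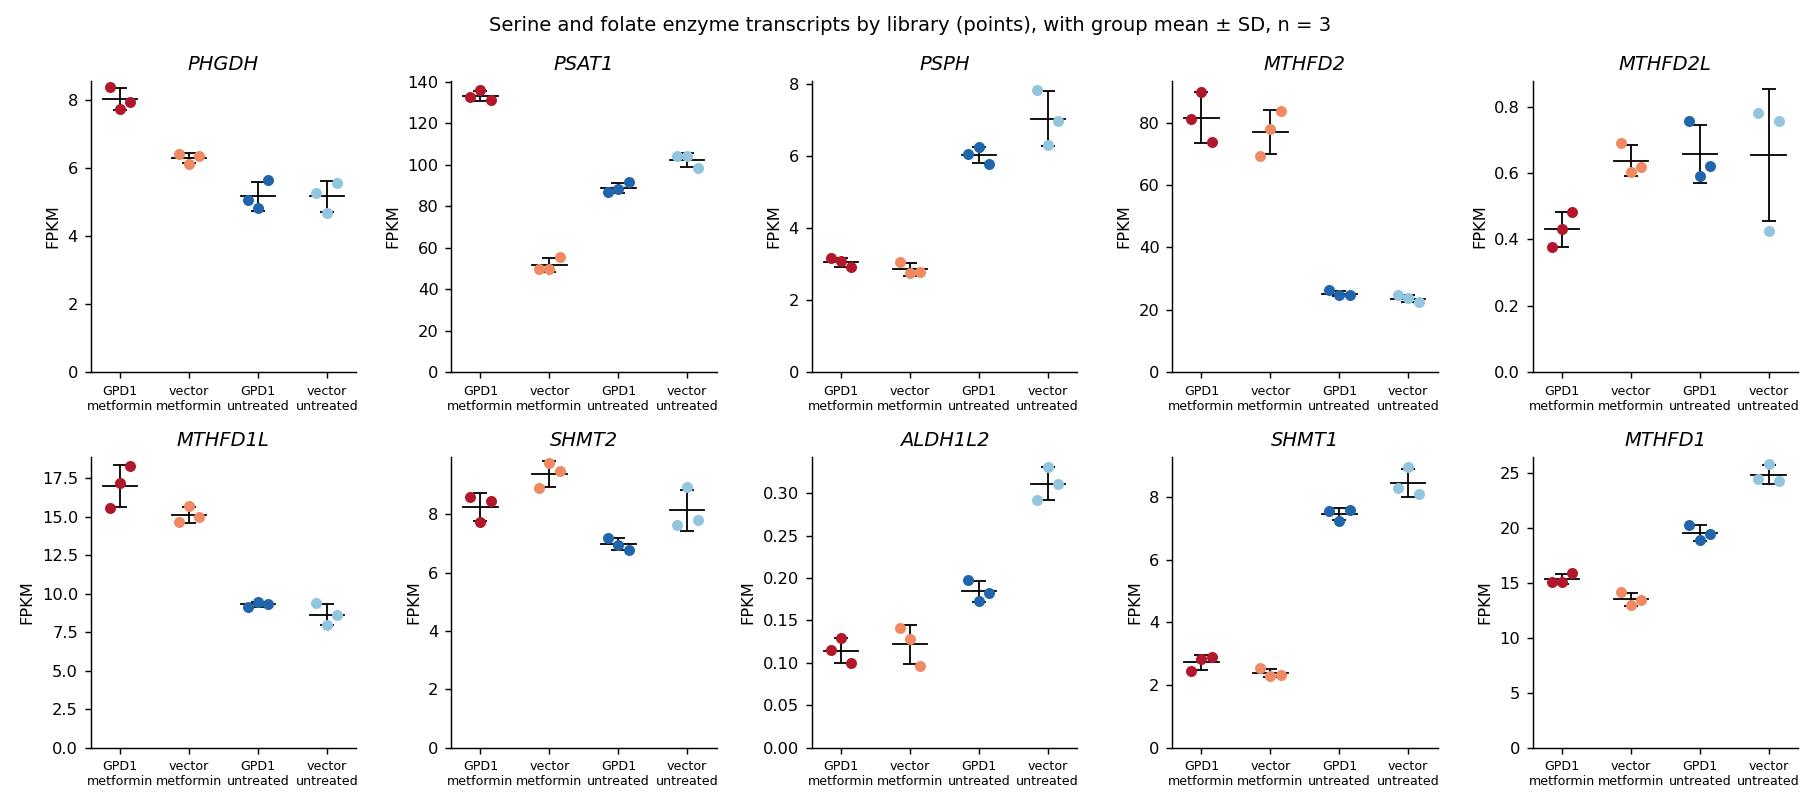
FPKM of the 10 enzymes (vertical axes, each from 0) in the 12 libraries (points), with group means and SD (n = 3). PSAT1 is highest in GPD1 cells with metformin (131 to 136 FPKM) and lowest in vector cells with metformin (49.5 to 55.6), MTHFD2 is at 69.4 to 90.0 FPKM in the 6 metformin libraries and at 22.4 to 26.2 in the 6 untreated ones, and SHMT1 is lower in all 6 metformin libraries.

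PSAT1 (ENSG00000135069, chromosome 9, 78297143 to 78330093, plus strand, GRCh38) had the highest mean FPKM of the 10 transcripts over the 12 libraries, though MTHFD2 was higher in vector cells with metformin. It measured 132.6, 135.9 and 131.1 FPKM in GPD1 cells with metformin, 49.5, 49.9 and 55.6 in vector cells with metformin, 86.9, 88.1 and 91.6 in untreated GPD1 cells, and 104.1, 104.0 and 98.5 in untreated vector cells. The 4 groups did not overlap, and the order of their levels was GPD1 with metformin, vector untreated, GPD1 untreated and vector with metformin. With metformin, PSAT1 rose 1.499-fold in GPD1 cells (log2 fold change 0.58, SE 0.05, limma adjusted p = 1.1e-06) and fell in vector cells to 0.505 of the untreated level (−0.97, SE 0.05, adjusted p = 1.7e-08). Both directions and calls held under each scaling and with each library left out. Among all tested genes, 1.55% were called higher with metformin in GPD1 cells and lower in vector cells, and 6.34% were called in opposite directions either way. These 2 metformin comparisons share no library.

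GPD1 cells had 2.58 times the PSAT1 of vector cells when both had metformin (log2 fold change 1.35, SE 0.05, limma adjusted p = 8.1e-09), the 80th highest of 12607 genes. Without metformin the difference had the other sign and was small, at 88.9 ± 2.47 FPKM in GPD1 cells and 102 ± 3.21 in vector cells (SD, n = 3 each; −0.20, limma adjusted p = 0.0141). That untreated call was lost with upper-quartile scaling (adjusted p = 0.0618) and without any 1 of 3 libraries, namely untreated GPD1 replicate 1 (0.0534), untreated vector replicate 1 (0.0518) and untreated vector replicate 2 (0.0503). The metformin effect on PSAT1 was greater by 1.55 on the log2 scale in GPD1 cells than in vector cells (SE 0.07, 95% interval 1.40 to 1.70, limma adjusted p = 3.0e-07), the 43rd highest interaction of 12607.

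PHGDH (ENSG00000092621, chromosome 1, 119648411 to 119744226, plus strand), which opens the pathway, was at a much lower FPKM than PSAT1. Levels of different genes depend on the merged exon length, 9217 bases for PHGDH and 2188 for PSAT1. In reads the gap was smaller, at about 628 to 1237 for PHGDH and 1767 to 5149 for PSAT1. Its libraries measured 8.38, 7.75 and 7.94 FPKM in GPD1 cells with metformin, 6.42, 6.13 and 6.37 in vector cells with metformin, 5.07, 4.81 and 5.64 in untreated GPD1 cells, and 5.26, 4.68 and 5.55 in untreated vector cells. GPD1 cells with metformin stood above all other libraries, vector cells with metformin came next, and the untreated groups overlapped. The rise with metformin was 1.55-fold in GPD1 cells (log2 fold change 0.55, SE 0.06, limma adjusted p = 1.7e-05) and 1.22-fold in vector cells (0.25, SE 0.06, adjusted p = 0.00506), though the vector value was −0.01 when totals were taken without mitochondrial genes. The effect was 0.30 larger in GPD1 cells (95% interval 0.10 to 0.50, limma adjusted p = 0.0202), and that call was lost with the same totals (0.22, adjusted p = 0.0817).

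PSPH (ENSG00000146733, chromosome 7, 56011051 to 56051604, minus strand), the last step, went the other way. It measured 3.16, 3.08 and 2.91 FPKM in GPD1 cells with metformin and 3.07, 2.75 and 2.78 in vector cells with metformin, against 6.06, 6.27 and 5.80 in untreated GPD1 cells and 7.84, 6.31 and 6.998 in untreated vector cells. All 6 metformin libraries lay below all 6 untreated ones. The fall was 1.98-fold in GPD1 cells (log2 fold change −0.80, SE 0.07, limma adjusted p = 1.4e-06) and 2.46-fold in vector cells (−1.06, SE 0.07, adjusted p = 1.3e-07). The interaction was 0.26 with a 95% interval of 0.04 to 0.47 and missed the threshold (limma adjusted p = 0.0509). It passed with median-ratio scaling (adjusted p = 0.0182), with upper-quartile scaling (0.00403), without vector metformin replicate 1 (0.0377) and without untreated vector replicate 2 (0.0137).

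Summed per library, the 3 serine synthesis transcripts came to 144 ± 2.43 FPKM in GPD1 cells with metformin, 60.8 ± 3.38 in vector cells with metformin, 100.1 ± 2.66 in untreated GPD1 cells and 114 ± 3.12 in untreated vector cells (SD, n = 3 each). PSAT1 made up 92.3%, 84.9%, 88.8% and 89.3% of these sums in the same order, so the sums follow PSAT1. Such shares depend on the merged exon lengths, 2188 bases for PSAT1, 9217 for PHGDH and 2762 for PSPH. Its processed copies PSAT1P1 to PSAT1P4 did not exceed 0.407 FPKM in any library, and PSPHP1 was listed at 0.

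**Figure D2:**
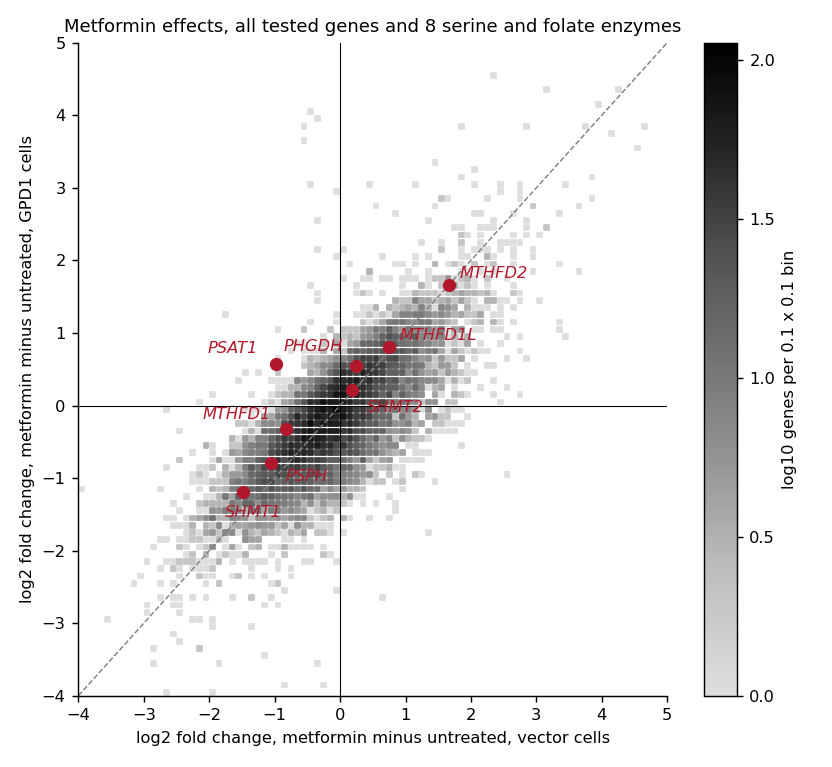
Log2 fold change with metformin in GPD1 cells (vertical) against that in vector cells (horizontal), on log2(FPKM + 1), with grey squares for the number of tested genes per bin (log10 scale) and red points for the 8 tested enzymes. PSAT1 is in the upper left quadrant (0.58 in GPD1 cells, −0.97 in vector cells), MTHFD2 lies on the diagonal (1.65 and 1.67), and SHMT1 is the lowest of the 8 (−1.19 and −1.48).

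MTHFD2 (ENSG00000065911, chromosome 2, 74198562 to 74217565, plus strand), the mitochondrial dehydrogenase and cyclohydrolase, had the largest rise of the tested enzymes with metformin. It measured 81.1, 90.0 and 73.8 FPKM in GPD1 cells with metformin and 69.4, 78.1 and 83.6 in vector cells with metformin, against 26.2, 24.6 and 24.7 in untreated GPD1 cells and 24.6, 23.6 and 22.4 in untreated vector cells. The lowest metformin library was far above the highest untreated one, and the GPD1 and vector libraries with metformin overlapped. The rise was 3.24-fold in GPD1 cells (log2 fold change 1.65, SE 0.08, limma adjusted p = 1.7e-08) and 3.27-fold in vector cells (1.67, SE 0.08, adjusted p = 1.3e-08). It ranked 164th and 298th from the top among 12607 genes.

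No difference between GPD1 and vector cells passed the test for MTHFD2. The log2 difference was 0.08 with metformin (95% interval −0.10 to 0.26, limma adjusted p = 0.402) and 0.09 without it (−0.08 to 0.27, adjusted p = 0.454). The interaction was −0.01 (−0.26 to 0.24, adjusted p = 0.940). With upper-quartile scaling the difference under metformin became 0.32 and passed (limma adjusted p = 0.00911), and the interaction was 0.20 and did not. Exons of MTHFD2 share 1324 bases with SLC4A5 on the other strand, which did not exceed 0.295 FPKM, and the highest of its processed copies, MTHFD2P7, did not exceed 1.32 FPKM.

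MTHFD1L (ENSG00000120254, chromosome 6, 150865549 to 151101887, plus strand), the mitochondrial formate synthetase, rose to a smaller extent. It measured 15.5, 17.2 and 18.3 FPKM in GPD1 cells with metformin and 14.7, 15.7 and 15.0 in vector cells with metformin, against 9.16, 9.47 and 9.33 in untreated GPD1 cells and 9.38, 7.97 and 8.60 in untreated vector cells. The metformin and untreated libraries were separate, while GPD1 and vector libraries overlapped in both states. The rise was 1.82-fold in GPD1 cells (log2 fold change 0.80, SE 0.07, limma adjusted p = 9.6e-07) and 1.75-fold in vector cells (0.74, SE 0.07, adjusted p = 1.5e-06), with an interaction of 0.06 (95% interval −0.15 to 0.26, adjusted p = 0.643). GPD1 minus vector under metformin was 0.16 (limma adjusted p = 0.0605), a value that passed with median-ratio scaling (0.25, adjusted p = 0.0112), with upper-quartile scaling (0.39, adjusted p = 9.9e-04) and with the transcript length trend removed (0.19, adjusted p = 0.0278). It also passed without GPD1 metformin replicate 1 (0.0162), untreated vector replicate 1 (0.0448) or untreated vector replicate 2 (0.0477).

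SHMT2 (ENSG00000182199, chromosome 12, 57229327 to 57234935, plus strand), which feeds serine carbon into the mitochondrial branch, changed least. It measured 8.59, 7.71 and 8.44 FPKM in GPD1 cells with metformin, 8.91, 9.77 and 9.46 in vector cells with metformin, 7.18, 6.93 and 6.78 in untreated GPD1 cells, and 7.64, 8.95 and 7.80 in untreated vector cells. In the vector cells 1 untreated library, replicate 2, lay above the lowest metformin library. The log2 fold change with metformin was 0.21 in GPD1 cells (SE 0.06, limma adjusted p = 0.00945) and 0.19 in vector cells (SE 0.06, adjusted p = 0.0189), and with totals taken without mitochondrial genes both had the other sign (−0.13 and −0.08) and neither passed. The vector call was also lost when only the groups compared were fitted (adjusted p = 0.0505) and without vector metformin replicate 2 (0.0669), untreated vector replicate 1 (0.0758) or untreated vector replicate 3 (0.0662).

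GPD1 cells had less SHMT2 than vector cells under metformin, at −0.17 on the log2 scale (SE 0.06, limma adjusted p = 0.0396). With median-ratio scaling it was −0.08 (adjusted p = 0.350) and with upper-quartile scaling 0.05 (adjusted p = 0.534). The call was also lost without metformin replicate 2 or 3 of GPD1 cells (0.143 and 0.0570), metformin replicate 2 or 3 of vector cells (0.122 and 0.0851) or untreated GPD1 replicate 2 (0.0527), with no filter on low values (0.0744), with only the groups compared (0.0586) and with the transcript length trend removed (0.0719). Of 20 alternatives, 9 kept it. Without metformin the difference was −0.19 (limma adjusted p = 0.05001, just above the threshold). The interaction was 0.03 (95% interval −0.17 to 0.22).

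The other mitochondrial members were scarce. MTHFD2L (ENSG00000163738, chromosome 4, 74114174 to 74303099, plus strand), the isozyme of MTHFD2, measured 0.378, 0.431 and 0.481 FPKM in GPD1 cells with metformin, 0.690, 0.603 and 0.617 in vector cells with metformin, 0.757, 0.592 and 0.622 in untreated GPD1 cells, and 0.781, 0.425 and 0.757 in untreated vector cells. GPD1 cells with metformin were below the vector libraries with metformin and the untreated GPD1 libraries, but they overlapped the untreated vector libraries. These values correspond to about 54 to 127 reads. With no filter on low values, no MTHFD2L difference passed limma's test (adjusted p 0.0973 or above).

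ALDH1L2 (ENSG00000136010, chromosome 12, 105019784 to 105084577, minus strand), the mitochondrial formyltetrahydrofolate dehydrogenase, was lowest of all. It measured 0.115, 0.129 and 0.0994 FPKM in GPD1 cells with metformin, 0.141, 0.128 and 0.0962 in vector cells with metformin, 0.198, 0.173 and 0.183 in untreated GPD1 cells, and 0.292, 0.331 and 0.311 in untreated vector cells, or about 12 to 49 reads. Metformin libraries were below untreated ones, and untreated GPD1 libraries were below untreated vector ones. With no filter, limma called it lower with metformin in GPD1 cells (log2 fold change −0.09, adjusted p = 0.0429) and in vector cells (−0.23, adjusted p = 1.5e-04), and lower in GPD1 than in vector cells without metformin (−0.15, adjusted p = 0.0125). A pseudocount of 1 understates changes at this level, where the vector mean with metformin was 0.392 of the untreated one. Exons of ALDH1L2 share 145 bases with C12orf45 on the other strand, which measured 0.307 to 1.66 FPKM. The part of C12orf45 in the ALDH1L2 values was not tested.

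The 5 mitochondrial transcripts together came to 107 ± 7.30 FPKM in GPD1 cells with metformin and 102 ± 7.62 in vector cells with metformin, against 42.3 ± 1.03 in untreated GPD1 cells and 41.3 ± 1.40 in untreated vector cells (SD, n = 3 each). MTHFD2 held 75.9% and 75.2% of the sum with metformin in GPD1 and vector cells, against 59.5% and 57.0% without it.

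In the cytosol, SHMT1 (ENSG00000176974, chromosome 17, 18327860 to 18363563, minus strand) had the largest fall of the tested enzymes. It measured 2.44, 2.82 and 2.90 FPKM in GPD1 cells with metformin and 2.53, 2.29 and 2.32 in vector cells with metformin, against 7.55, 7.25 and 7.59 in untreated GPD1 cells and 8.30, 8.95 and 8.10 in untreated vector cells. No metformin library came near an untreated one. The fall was 2.74-fold in GPD1 cells (log2 fold change −1.19, SE 0.06, limma adjusted p = 2.1e-08) and 3.55-fold in vector cells (−1.48, SE 0.06, adjusted p = 3.4e-09), placing it 973rd and 507th from the bottom of 12607 genes.

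The fall of SHMT1 was smaller in GPD1 cells by 0.29 on the log2 scale (95% interval 0.11 to 0.48, limma adjusted p = 0.0149), a call lost with totals taken without mitochondrial genes (0.23, adjusted p = 0.0598). Between GPD1 and vector cells, neither the difference with metformin (0.14, adjusted p = 0.0696) nor that without it (−0.16, adjusted p = 0.0861) passed the test. The difference with metformin did pass with median-ratio scaling (0.21, limma adjusted p = 0.0126) and with upper-quartile scaling (0.32, 9.5e-04). It passed too with the transcript length trend removed (0.19, limma adjusted p = 0.0135). The same held without metformin replicate 1 of GPD1 cells (0.0158) or of vector cells (0.0477). SHMT1 exons share 196 bases with SMCR8 on the other strand, and without strand the reads there cannot be assigned. SMCR8 averaged 3.55 ± 0.117 FPKM in GPD1 cells with metformin, 9.82 ± 1.21 in vector cells with metformin, 7.94 ± 0.743 in untreated GPD1 cells and 7.81 ± 0.705 in untreated vector cells. With metformin its mean was lower in GPD1 cells, as for SHMT1, and higher in vector cells, unlike SHMT1. The part of SMCR8 in the SHMT1 values was not tested.

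MTHFD1 (ENSG00000100714, chromosome 14, 64388031 to 64463457, plus strand), the trifunctional cytosolic enzyme, was expressed more per length than SHMT1 and fell less. It measured 15.1, 15.1 and 15.9 FPKM in GPD1 cells with metformin, 14.2, 13.0 and 13.5 in vector cells with metformin, 20.3, 18.9 and 19.5 in untreated GPD1 cells, and 24.4, 25.9 and 24.3 in untreated vector cells. The 4 groups were separate, in the order vector untreated, GPD1 untreated, GPD1 with metformin and vector with metformin. In GPD1 cells the fall with metformin was 1.27-fold (log2 fold change −0.33, SE 0.05, limma adjusted p = 6.7e-05), but that value was −0.01 with median-ratio scaling (adjusted p = 0.827) and 0.12 with upper-quartile scaling (adjusted p = 0.0362). In vector cells it was 1.84-fold (−0.83, SE 0.05, limma adjusted p = 3.8e-08).

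GPD1 cells had less MTHFD1 than vector cells without metformin (log2 fold change −0.33, SE 0.05, limma adjusted p = 5.0e-04) and more with it (0.17, SE 0.05, adjusted p = 0.00811). The call under metformin was lost with totals taken without mitochondrial genes (0.08, adjusted p = 0.257). The difference between the metformin effects was 0.50 (95% interval 0.36 to 0.65, limma adjusted p = 1.3e-04) and it passed in all alternatives run. Exons of MTHFD1 share 178 bases with ZBTB25 and 756 with AL122035.2 on the other strand, which measured 1.64 to 7.92 and 0.769 to 2.90 FPKM.

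SHMT1 and MTHFD1 together came to 18.1 ± 0.667 FPKM in GPD1 cells with metformin and 15.9 ± 0.722 in vector cells with metformin, against 27.0 ± 0.844 in untreated GPD1 cells and 33.3 ± 1.30 in untreated vector cells (SD, n = 3 each).

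Ratios within a library do not depend on how libraries are scaled. The ratio of mitochondrial SHMT2 to cytosolic SHMT1 was 3.06 ± 0.414 in GPD1 cells and 3.95 ± 0.388 in vector cells with metformin, against 0.933 ± 0.0356 in untreated GPD1 cells and 0.961 ± 0.0396 in untreated vector cells (SD, n = 3 each). The 2 transcripts were near parity in FPKM without the drug. That level depends on the merged exon lengths, 4838 bases for SHMT2 and 7281 for SHMT1, while the change of the ratio does not. The log2 ratio changed with it by 1.70 in GPD1 cells and by 2.04 in vector cells. The ratio of MTHFD1L to MTHFD1, the formate synthetases of the 2 compartments, was 1.11 ± 0.0648 in GPD1 cells and 1.12 ± 0.0873 in vector cells with metformin, against 0.477 ± 0.0249 in untreated GPD1 cells and 0.349 ± 0.0380 in untreated vector cells. Its log2 change was 1.21 in GPD1 cells and 1.69 in vector cells.

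The ratio of MTHFD2 to MTHFD2L was 192 ± 34.0 in GPD1 cells and 122 ± 18.6 in vector cells with metformin, against 38.6 ± 3.62 in untreated GPD1 cells and 38.9 ± 14.5 in untreated vector cells, with log2 changes of 2.30 and 1.70. For each of the 6 changes with metformin the groups did not overlap, which gives a two-sided exact permutation p of 0.10, the smallest that 3 libraries against 3 allow. Of all tested genes taken singly, 77.1% did not overlap with metformin in GPD1 cells and 76.6% in vector cells. Other gene pairs were not counted, and the transcript length trend was not removed for the ratios. Between GPD1 and vector cells, the MTHFD2 to MTHFD2L ratio did not overlap under metformin (log2 difference 0.65, exact permutation p = 0.10) and the MTHFD1L to MTHFD1 ratio did not overlap without it (0.46, exact permutation p = 0.10). The other 4 such differences had overlapping libraries (exact permutation p from 0.20 to 0.90). No p was adjusted over the 12 ratio comparisons, since none can pass 0.05.

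**Figure D3:**
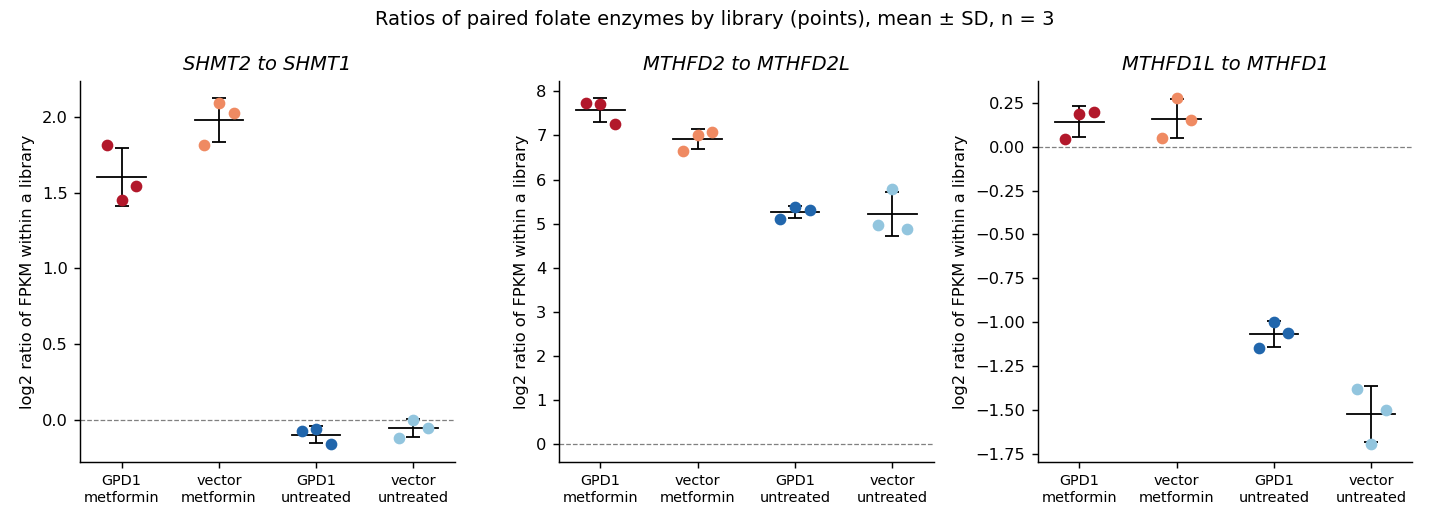
Log2 ratio of FPKM of 2 enzymes within each library (points), with group means and SD (n = 3); the dashed line is an equal level. With metformin both groups lie above their untreated counterparts in all 3 panels, and SHMT2 to SHMT1 is close to 0 on the log2 scale in the 6 untreated libraries (linear ratio 0.893 to 1.00).

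Apart from PSAT1 under metformin, the differences between GPD1 and vector cells ran from −0.33 (MTHFD1, untreated) to 0.30 (PHGDH, metformin) on the log2 scale. Under metformin, 3 of the 8 tested enzymes were higher in GPD1 than in vector cells (PSAT1, PHGDH and MTHFD1), 1 was lower (SHMT2) and 4 did not pass, where 60.0% of all tested genes were called, 25.0% higher and 35.0% lower. With upper-quartile scaling 7 of the 8 were higher and 0 lower. Without metformin none was higher and 2 were lower (MTHFD1 and PSAT1), where 21.3% of all tested genes were called, 9.99% higher and 11.3% lower. At an unadjusted p under 0.05, limma found none higher and 5 lower without metformin, where 15.2% of all tested genes were higher and 18.0% lower. The median log2 difference of the 8 was 0.15 under metformin and −0.17 without it, against −0.05 and −0.01 over all tested genes. GPD1 and vector libraries did not overlap for 4 of the 8 under metformin (64.8% of all tested genes) and for 6 of the 8 without it (41.4%). The interaction was positive and passed for 4 enzymes (PSAT1, MTHFD1, PHGDH and SHMT1), where 45.9% of all tested genes passed, 19.1% higher and 26.8% lower.

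**Figure D4:**
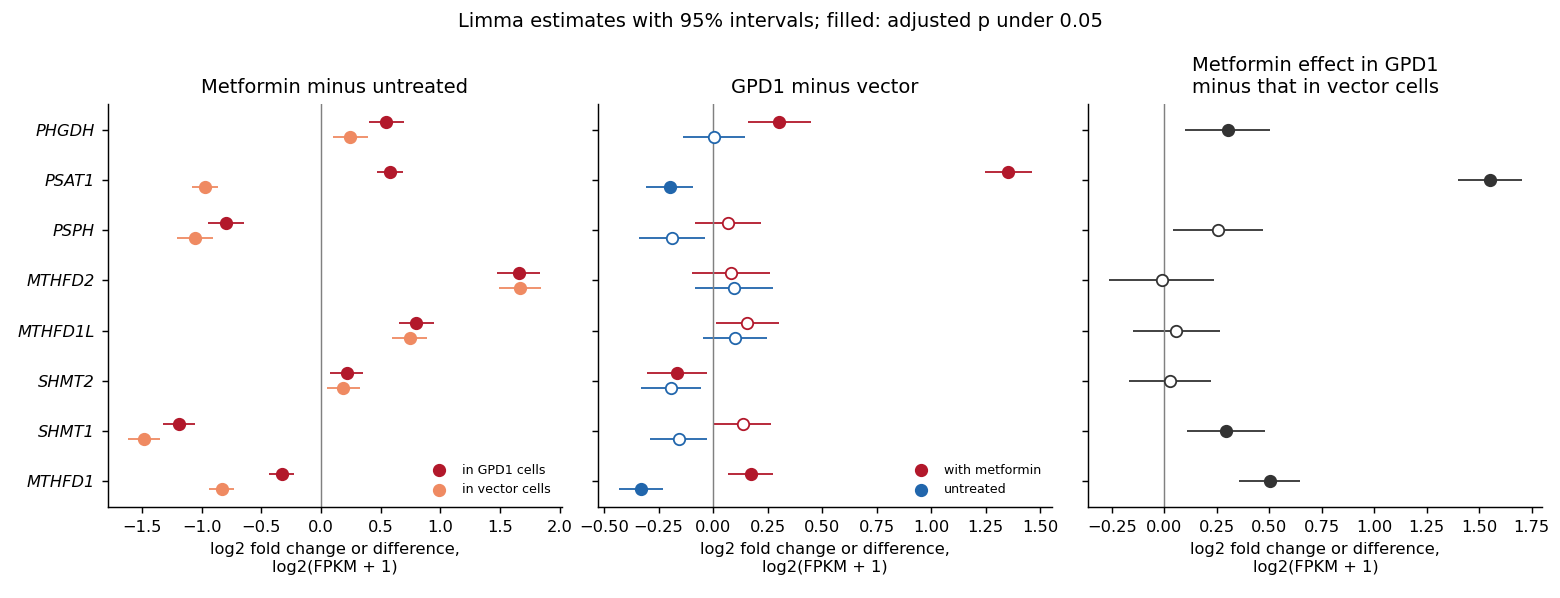
Log2 fold changes or differences of the 8 tested enzymes (points, filled where the limma adjusted p is under 0.05) with 95% intervals, for metformin minus untreated, GPD1 minus vector, and the difference between the metformin effects. The interaction of PSAT1 (1.55) lies apart from the rest, whose estimates run from −0.01 for MTHFD2 to 0.50 for MTHFD1.

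The genes around the pathway held both higher and lower calls with metformin. Their counts stand against 26.1% higher and 48.0% lower over all tested genes in GPD1 cells and 31.3% higher and 43.3% lower in vector cells. Of 14 other folate genes, 9 were tested, and with metformin 2 rose and 7 fell in GPD1 cells, and 3 rose and 5 fell in vector cells. TYMS, the thymidylate synthase that consumes the methylene unit, fell 2.35-fold in GPD1 cells (15.3 ± 2.42 FPKM with metformin and 36.0 ± 4.31 without) and 2.29-fold in vector cells (12.2 ± 2.27 and 27.9 ± 1.497). SLC25A32, the mitochondrial folate carrier, fell 2.37-fold in GPD1 cells and 2.03-fold in vector cells (log2 fold changes −0.91 and −0.79, limma adjusted p = 1.3e-05 and 3.6e-05).

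Purine synthesis takes up one-carbon units at some of its steps only, so its list is not one of one-carbon users. With metformin it gave 0 higher and 4 lower of 6 tested in GPD1 cells and 1 higher and 4 lower in vector cells. These stand against the same shares of all tested genes (26.1% higher and 48.0% lower, and 31.3% higher and 43.3% lower). PFAS, which makes formylglycinamidine ribotide and uses no folate itself, fell 5.26-fold in GPD1 cells (1.37 FPKM with metformin and 7.22 without; limma adjusted p = 2.7e-10) and 7.43-fold in vector cells (1.55 and 11.5; adjusted p = 3.6e-11). PPAT, the committing enzyme, rose in vector cells with metformin (log2 fold change 0.75, limma adjusted p = 1.4e-05), and under metformin it was 2.04-fold lower in GPD1 than in vector cells. Of 11 genes of the methionine cycle and transsulfuration, 7 were tested, of which 2 rose and 4 fell in GPD1 cells and 2 rose and 3 fell in vector cells. MTR, the folate-dependent methionine synthase, fell 2.75-fold and 2.64-fold. The only tested gene of 4 for glycine cleavage, DLD, fell in both (−0.86 and −1.13 on the log2 scale).

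Of 7 serine and glycine transporters, all tested, 1 rose and 5 fell with metformin in GPD1 cells and none rose and 5 fell in vector cells, where 74.2% and 74.6% of all tested genes were called, more of them lower than higher. SLC38A2, a neutral amino acid carrier, fell 4.52-fold in GPD1 cells and 2.14-fold in vector cells, a difference of −0.96 on the log2 scale (limma adjusted p = 8.3e-05). Under metformin, SLC1A5, which exchanges neutral amino acids, and SLC6A9, a glycine transporter, were higher in GPD1 than in vector cells (log2 fold changes 0.86 and 0.73, limma adjusted p = 0.00193 and 6.7e-05). SLC6A9 was also higher without metformin (0.58, adjusted p = 0.00147). Of 8 genes that use or break down serine, 6 were tested, of which 1 rose and 3 fell in GPD1 cells and 1 rose and 4 fell in vector cells. SRR, the serine racemase, fell 3.61-fold and 4.12-fold, and SDSL, a serine dehydratase-like enzyme, was 1.94-fold lower in GPD1 than in vector cells without metformin (limma adjusted p = 3.2e-05).

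The medians of these lists were close to that of all tested genes or below it in most cases. With metformin in GPD1 cells they were −0.43 for the other folate genes, −0.40 for the methionine cycle, −0.26 for purine synthesis, −0.34 for transport and −0.12 for serine use, against −0.20 over all tested genes. In vector cells they were −0.44, −0.08, −0.19, −0.61 and −0.37 in the same order, against −0.10.

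**Figure D5:**
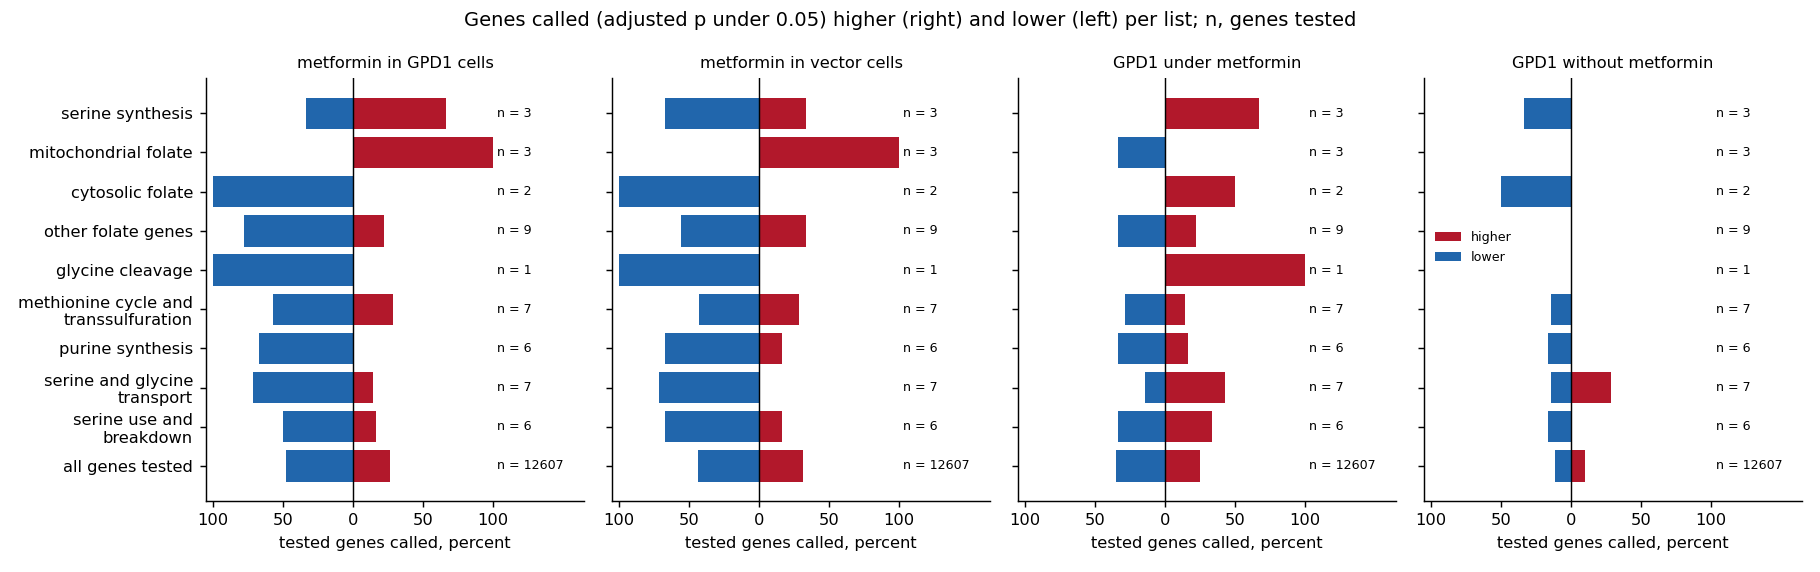
Share of tested genes called higher (red, right) and lower (blue, left) by limma in each of 9 lists and over all 12607 tested genes, for 4 comparisons, with the number tested beside each bar. The 3 mitochondrial folate enzymes are all called higher with metformin and the 2 cytosolic ones lower, serine synthesis has calls both ways, and the other 6 lists hold more lower than higher calls with metformin, as do all tested genes.

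ATF4, the known regulator of several of these genes, was measured at 163, 162 and 166 FPKM in GPD1 cells with metformin and 237, 242 and 253 in vector cells with metformin, against 82.7, 82.7 and 84.0 in untreated GPD1 cells and 86.8, 81.0 and 79.3 in untreated vector cells. Its transcript rose 1.97-fold with metformin in GPD1 cells and 2.96-fold in vector cells (limma adjusted p = 6.1e-09 and 2.0e-10). Under metformin it was lower in GPD1 than in vector cells (log2 fold change −0.57, limma adjusted p = 6.0e-07), with an interaction of −0.58 (adjusted p = 1.8e-05). PSAT1 had an interaction of the other sign and MTHFD2 none that passed. Transcript levels do not measure ATF4 protein, whose translation is regulated.

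ASNS and PCK2 are other known ATF4 targets, set in the regulator list. Genes of the other lists, which held falls with metformin, were not sorted by whether ATF4 regulates them. ASNS and PCK2 therefore do not stand for all ATF4 targets. ASNS, asparagine synthetase, rose 4.22-fold with metformin in GPD1 cells and 2.29-fold in vector cells (limma adjusted p = 9.4e-06 and 7.5e-04), with an interaction of 0.87 (adjusted p = 0.0385). Its means with metformin were close, at 25.1 FPKM in GPD1 cells and 23.5 in vector cells. Without metformin ASNS was lower in GPD1 cells (log2 fold change −0.77, limma adjusted p = 0.0290). It measured 4.77, 3.88 and 9.23 FPKM in untreated GPD1 cells and 10.4, 10.1 and 10.3 in untreated vector cells. PCK2, the mitochondrial phosphoenolpyruvate carboxykinase, averaged 9.50 FPKM in GPD1 cells and 6.004 in vector cells with metformin, against 4.72 in untreated GPD1 cells and 4.86 in untreated vector cells, with an interaction of 0.62 (limma adjusted p = 0.00101). MYC did not behave alike within groups. It measured 1.18, 18.2 and 1.199 FPKM in GPD1 cells with metformin, 20.7, 20.7 and 26.2 in vector cells with metformin, 0.868, 0.579 and 0.622 in untreated GPD1 cells, and 0.667, 0.665 and 7.80 in untreated vector cells. In GPD1 with metformin replicate 2 and untreated vector replicate 3, MYC was far above the rest of its group. There PSAT1 was the highest and the lowest of its group (135.9 and 98.5 FPKM), and so was MTHFD2 (90.0 and 22.4 FPKM). PHGDH was the lowest and the highest (7.75 and 5.55 FPKM), and the other enzymes showed neither order. MYC was high in both of these libraries, while PSAT1, MTHFD2 and PHGDH each stood at opposite ends of their groups in them. An order within 3 libraries is coarse, and how many of all genes show either order was not counted. A tie to MYC was not tested.

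The genes with the most similar pattern were found by the root mean square difference between 4 centred group means of log2(FPKM + 1), among 4886 protein-coding genes that averaged 5 FPKM or more. It is a description over 4 groups. PSAT1 had no near match, with COL18A1 at 0.114, DYNLT1 at 0.121 and AC105052.3 at 0.177. For MTHFD2 the nearest were LRRC8A at 0.0434, OSER1 at 0.0935 and MISP at 0.0965. For the others the nearest gene was closer, such as CDK4 at 0.0103 for MTHFD1, ZP3 at 0.00821 for MTHFD1L, TMA7 at 0.0153 for PHGDH, CNN2 at 0.0207 for SHMT2, PFDN6 at 0.0325 for PSPH and ZMYM3 at 0.0377 for SHMT1. MTHFD2L (nearest USP32, 0.0105) and ALDH1L2 (nearest MINK1, 0.0115) have small ranges on this scale, so that many genes lie near them.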

How the data were processed

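RNA of A549 cells was sequenced in 12 libraries, 4 groups of 3, from an NEBNext Ultra kit whose strand is not stated, per the labels' protocols. CASAVA 1.8, HISAT2 2.1.0 and edgeR (no version) were used with GRCh38/hg38, per the submitters' processing notes. The deposited table holds FPKM computed by the authors, although its header names no unit. The unit was inferred, since low values times the merged exon length (GENCODE 29, same locus for 97.1% of genes) were whole multiples of 1 step per library, within 0.02, for 64.5% to 69.3% of values up to 10 reads, and RPKM would look the same. Neither labels nor header name the program behind the values. Another 12 samples, of 786-O cells, are not analysed here.

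Groups came from the labels. Values as log2(FPKM + 1) were fitted as 4 group means with limma 3.58.1 under R 4.3.3, with a trend of the variance on intensity, over the 12607 genes that averaged 1 FPKM or more, with Benjamini-Hochberg adjustment over all of them and a threshold of 0.05. The 5 comparisons were metformin in GPD1 cells and in vector cells, GPD1 under metformin and without it, and the interaction. The pseudocount understates changes of low genes. The test was checked on simulated data. Within-library ratios were tested by two-sided exact permutation (scipy 1.17.1). Each library pair within a group differed by more than sampling noise (chi-square per gene 3.65 to 4.96), which does not show separate cultures. All 12 were counted separately, as the labels list them.

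The enzymes and lists were chosen with earlier results of these data known. The 10 enzymes, GPD1, ATF4 and MYC were always named, with up to 3 genes per list and comparison (the largest called changes), and the 3 genes most alike per enzyme. Some genes that this rule would name are not reported here. NFE2L2 was in the regulator list, and no difference of it passed. Other genes, KRT19, CD68, SMCR8, SLC4A5 and ZBTB25 among them, are given as markers or neighbours. Alternatives were median-ratio and upper-quartile scaling, totals without mitochondrial genes, no filter, a pseudocount of 0.1, only the groups compared, the replicate number as a block, each library left out and, chosen after seeing the data, removal of a transcript length trend (spline with 5 degrees of freedom).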

Additional observations from a re-analysis of the deposited data

Results flagged for a closer look

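For 4 enzymes the effect of metformin differed between GPD1 and vector cells by the interaction test in limma. The metformin effect in GPD1 cells minus that in vector cells was 1.55 for PSAT1 (adjusted p = 3.0e-07), 0.50 for MTHFD1 (1.3e-04), 0.30 for PHGDH (0.0202) and 0.29 for SHMT1 (0.0149) on the log2 scale. All 3 GPD1 libraries with metformin were above all 3 vector libraries with metformin for PSAT1, MTHFD1 and PHGDH, and the libraries overlapped for SHMT1. The interaction passed for 45.9% of all tested genes. ATF4 transcript differed in the other direction (−0.58), and its part in these differences was not tested.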

How the results depend on the processing

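The 40 log2 fold changes of the enzymes were recomputed under 792 alternatives in all, of which 724 kept direction and call, 22 lost a call, 23 gained one and 23 turned sign. PSAT1 kept its calls under every alternative with metformin in GPD1 cells (0.19 to 1.05), in vector cells (−1.27 to −0.71), for GPD1 under metformin (1.24 to 1.59) and in the interaction (1.44 to 1.77), and MTHFD2, MTHFD1L, SHMT1 and PSPH kept theirs with metformin in both kinds of cell. The genes called with metformin in vector cells came to 14315 with no filter, against 9411, because more genes were tested. With upper-quartile scaling the enzymes called came to 7 for GPD1 under metformin (4 as reported) and 1 for GPD1 without metformin (2 as reported), and with totals without mitochondrial genes the interaction had 2 (4 as reported). Leaving out single libraries gave 1 to 3 enzymes called for GPD1 without metformin, with 1 left without GPD1 untreated replicate 1.

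Sign turned with upper-quartile scaling for MTHFD1 with metformin in GPD1 cells (0.12), SHMT2 for GPD1 under metformin (0.052) and the MTHFD2 interaction (0.20, and 0.070 with median-ratio scaling). With totals without mitochondrial genes it turned for SHMT2 with metformin in GPD1 cells (−0.13) and vector cells (−0.080), PHGDH with metformin in vector cells (−0.0059), GPD1 under metformin for PSPH (−0.0079) and MTHFD2 (−0.018), PHGDH without metformin (−0.0052), and the interactions of SHMT2 (−0.050) and MTHFD1L (−0.031). With the length trend removed it turned for PSPH under metformin (−0.015), PHGDH without metformin (−0.0011) and the MTHFD2 interaction (0.0084). With single libraries left out, PHGDH without metformin ran from −0.055 to 0.048, the interactions of MTHFD2 from −0.084 to 0.057 and of SHMT2 from −0.036 to 0.070, the log2 ratio of MTHFD2 to MTHFD2L between untreated GPD1 and vector cells from −0.12 to 0.34, and that of MTHFD1L to MTHFD1 under metformin from −0.071 to 0.041. Of these, MTHFD1 and SHMT2 with metformin in GPD1 cells, SHMT2 and PHGDH with metformin in vector cells and SHMT2 under metformin had passed the test as reported, and the others had not. The cause was not tested.

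The share of higher among called genes was 41.7% for GPD1 under metformin and 41.6% in the interaction, and 62.2% and 61.6% with upper-quartile scaling. Libraries with the same replicate number did not deviate together (correlations −0.07 to 0.06, 0 of 18 over 0.1). Whether same-numbered libraries were cultured or prepared together cannot be told from this. With the replicate number as a block the interaction of PSPH passed (0.26, limma adjusted p = 0.0418) and SHMT2 under metformin did not (−0.17, 0.0629). Depth limits ALDH1L2 and MTHFD2L, at about 12 to 49 and 54 to 127 reads.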

Other observations

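Some genes of the wider pathway were too low to be tested and are given as values. GLDC, the decarboxylase of the glycine cleavage system, averaged 0.403 ± 0.0603 FPKM in GPD1 cells with metformin, 0.214 ± 0.0193 in vector cells with metformin, 0.866 ± 0.0278 in untreated GPD1 cells and 1.28 ± 0.0761 in untreated vector cells (SD, n = 3 each). ALDH1L1, the cytosolic counterpart of ALDH1L2, did not exceed 0.00534 FPKM in the mean of any group.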
